A study of Mus musculus with 4 samples.

Results

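The 38 genes described here encode subunits of the proteasome and the activators that cap it. They were taken by name from the 24497 mouse gene rows of one RNA-seq table, and all 38 were found. Of these, 5 are interferon-inducible: the catalytic subunits Psmb8, Psmb9 and Psmb10, and the activator subunits Psme1 and Psme2. The other 33 are the constitutive subunits of the core and cap and the activators Psme3 and Psme4. The cells were mouse leukaemic cells from the spleens of transplanted mice, in 2 libraries labelled Tet2 KO and 2 labelled WT. Per the labels and the design text, both groups started from bone marrow stem cells, of Tet2-/- donors in the first case and wild-type donors in the second, and both were made leukaemic with NRAS/AE9a; AE9a is a shortened form of the AML1-ETO fusion protein. Both were grown with SCF (50 ng/ml), IL-3 and IL-6 (10 ng/ml), G418 and puromycin, and were transplanted into CD45.1+ recipients of 6 to 8 weeks irradiated with 900 cGy. Enrichment was for CD45.2, the donor variant of the leukocyte surface protein, and some host cells may remain. Not stated in the sources used here are the Tet2 allele, the promoter of each transgene, whether a line is 1 clone, and whether 1 or more animals gave the libraries of a group. The p-values therefore cover the spread among these libraries alone, and that spread may not be one among animals.

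The proteasome is a barrel-shaped protease that degrades ubiquitin-tagged proteins. Its 20S core has outer rings of alpha subunits, which gate the channel, and inner rings of beta subunits, of which Psmb6 (beta1), Psmb7 (beta2) and Psmb5 (beta5) carry the active sites. In cells exposed to interferon, and in many blood cells at rest, new cores are built with Psmb9 (beta1i), Psmb10 (beta2i) and Psmb8 (beta5i) in their place. This form, the immunoproteasome, cuts more peptides of the kind that MHC class I molecules present. The 19S cap, made of Psmc ATPases and Psmd subunits, recognises and unfolds ubiquitin-tagged substrates, whereas the caps PA28 (Psme1 with Psme2, or Psme3 alone) and PA200 (Psme4) open the core without ATP.

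Levels are given in TPM (transcript abundance scaled for gene length and to a fixed total per library), so that levels of different genes can be set side by side. Changes are differences of log2(TPM + 1), Tet2 KO minus WT, with limma's standard error. Calls are limma's at a Benjamini-Hochberg adjusted p under 0.05 over all 11919 genes that reached 1 TPM in at least 2 libraries. The difference between the WT libraries was close to what read sampling gives (robust variance 1.11 times that of read sampling over 3129 genes, against 6.41 times over 3285 genes for the Tet2 KO libraries). They were therefore averaged and counted as 1 sample, against 2 Tet2 KO samples, under the assumption that WT varies like Tet2 KO. All 38 genes passed the filter on low values.

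The groups also differed in general library properties. Approximate depth, in M reads, was 24.8 and 25.6 in the Tet2 KO libraries and 22.2 and 20.03 in the WT libraries. ERCC spike-in RNAs, synthetic transcripts added as a scaling standard, took 2.95% and 3.19% of TPM in Tet2 KO and 4.66% and 4.62% in WT. The 20 most abundant genes took 22.2% and 19.9% in Tet2 KO and 11.8% in each WT library. Xist, expressed from the inactive X chromosome, stood at 86.1 and 28.2 TPM in the Tet2 KO libraries and at 0.34 TPM in each WT library, and the Y-linked gene Eif2s3y at 29.8 and 90.4 TPM in Tet2 KO and 107 TPM in each WT library. These sex-linked genes thus differed between the groups and also between the Tet2 KO libraries. Whether sex had a part in the changes below was not tested. The targeted gene Tet2 had 63.7 and 68.1 TPM under the Tet2 KO label and 43.5 and 43.7 TPM in WT (log2 change 0.58 ± 0.19, limma adjusted p = 0.0171). That call did not hold with limma's plain variance estimate or with no filter on low values. Tet2 was thus not reduced under the Tet2 KO label. A whole-gene value does not show a deleted exon, and every direction below rests on the labels. Because ERCC scaling moved the median change of all tested genes to 0.43, against -0.12 on the TPM scale, it is given beside the groups of proteasome genes.

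On the TPM scale, proteasome genes were lower in the libraries labelled Tet2 KO, and the 5 interferon-inducible subunits were lowest. Of the 38 genes 30 fell and 0 rose (also 0 at an unadjusted p under 0.05), while 26.7% of all tested genes were called lower and 22.1% higher (48.8% in either direction). The 5 inducible subunits all fell, with a median log2 change of -2.70 and a range from -3.29 to -1.86. Of the 33 others 25 fell, with a median of -0.67 and a range from -1.43 to -0.16, so the ranges of the 2 sets did not meet. With ERCC scaling, under which 12.5% of all genes were called lower and 41.5% higher, all 5 inducible subunits still fell (median -2.13), but only 4 of the 33 others did (median -0.08), and 12 of the 33 had a log2 change above 0. Relative to the median of all tested genes, the inducible set stood at -2.59 and the others at -0.56 on the TPM scale, and at -2.56 and -0.52 with ERCC scaling. Of all tested genes, 25.3% had a lower change than the median of the others on the TPM scale, and 27.4% with ERCC scaling. Without the filter on low values 0 of the 38 passed limma's threshold (14 at an unadjusted p under 0.05), in a fit of 18594 genes in which 1.59% were called lower.

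**Figure D1:**
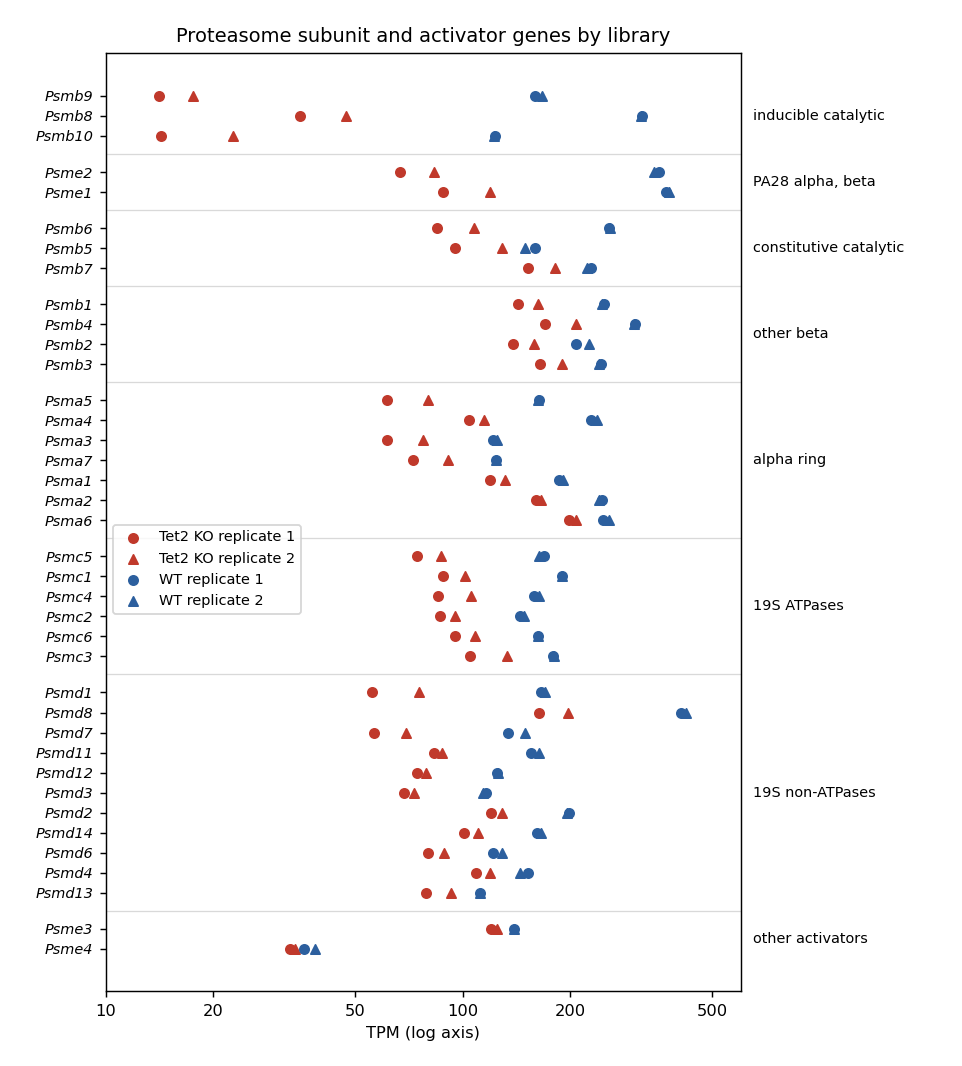
TPM (log axis) of the 38 genes in each library, ordered by role, with Tet2 KO libraries in red and WT libraries in blue, and circles and triangles for replicates 1 and 2. In each of the 38 genes both Tet2 KO points lie left of both WT points; the gap is widest for Psmb9, Psmb8 and Psmb10.

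Of the inducible catalytic subunits, Psmb8 (beta5i, chymotrypsin-like activity) had 35.1 and 47.1 TPM in the Tet2 KO libraries, against 318 and 316 TPM in WT. Its mean of 41.1 ± 8.52 TPM (SD, n = 2) was 7.72-fold lower than the WT mean of 317 TPM, a log2 change of -2.93 ± 0.21 (limma adjusted p = 4.43e-08). In WT it was the fourth most abundant of the 38 genes, and in both Tet2 KO libraries it ranked 35. Psmb9 (beta1i) had 14.1 and 17.5 TPM in Tet2 KO and 159 and 167 TPM in WT. It showed the largest change of the 38 genes, 10.3-fold lower (log2 change -3.29 ± 0.21, limma adjusted p = 4.14e-09), and 209 of the 11919 tested genes had a lower log2 change. Psmb10 (beta2i) had 14.2 and 22.7 TPM in Tet2 KO and 123 and 122 TPM in WT (log2 change -2.70 ± 0.26, limma adjusted p = 1.08e-05). For each of these genes the Tet2 KO and WT values did not overlap, and the WT libraries lay close to each other. Psmb10 differed most between the Tet2 KO libraries of all 38 genes, with replicate 2 at 1.59 times replicate 1. In bulk RNA, fewer cells of a type and less RNA per cell cannot be told apart.

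Psme1 and Psme2 encode PA28 alpha and beta, which form a mixed ring on the core. Psme1 had 88.0 and 119 TPM in the Tet2 KO libraries and 369.6 and 378 TPM in WT, 3.61-fold lower (log2 change -1.86 ± 0.23, limma adjusted p = 1.08e-05). Psme2 had 66.5 and 83.0 TPM in Tet2 KO and 355 and 344 TPM in WT, 4.67-fold lower (log2 change -2.22 ± 0.21, limma adjusted p = 4.03e-07). Both groups were apart in every library. In WT both genes ranked 2 and 3 among the 38, above every core subunit; in Tet2 KO, Psme1 ranked 19 and 15 and Psme2 30 and 28. The Psme1 to Psme2 ratio was 1.32 and 1.44 in Tet2 KO and 1.04 and 1.10 in WT, so Psme2 was lower than Psme1 by more in Tet2 KO. The value of Psme2 is uncertain, because it shares 99.4% of 794 aligned nucleotides with Psme2b, a copy on chromosome 11. Psme2b had 20.6 and 20.2 TPM in Tet2 KO and 126 and 123 TPM in WT. The sum of both copies was 87.1 and 103 TPM in Tet2 KO and 480.3 and 467 TPM in WT, a log2 change of -2.31. Over the alternative processings, adjusted p of the 5 inducible subunits exceeded 0.05 only without the filter on low values, where it ran from 0.0819 to 0.147.

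The constitutive catalytic subunits moved unequally. Psmb6 (beta1, caspase-like activity) had 84.4 and 107 TPM in Tet2 KO and 257 and 259 TPM in WT, a fall of the mean to 95.9 ± 16.3 TPM, 2.69-fold below WT (log2 change -1.43 ± 0.22, limma adjusted p = 5.63e-05). This was the largest change among the 33 others, and it passed with ERCC scaling too (log2 change -0.83). Psmb5 (beta5) had 94.8 and 129 TPM in Tet2 KO and 159 and 149 TPM in WT, and its change of -0.48 ± 0.22 did not pass (limma adjusted p = 0.0925). Psmb7 (beta2, trypsin-like activity) had 152 and 181 TPM in Tet2 KO and 228 and 223 TPM in WT, and did not pass either (log2 change -0.44 ± 0.22, limma adjusted p = 0.108). For both, the lower values in Tet2 KO did not overlap those in WT, but with ERCC scaling their log2 changes were 0.12 and 0.15. With both WT libraries as samples Psmb7 passed (limma adjusted p = 0.0211) and Psmb5 did not (0.0540), and with the replicate number as a block as well both passed (limma adjusted p = 0.0206 for Psmb5 and 0.0160 for Psmb7). Psma6, Psmb3, Psmd4 and Psmd13, described below as not called, also passed in both of these fits, which count the near-identical WT libraries as 2 samples.

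The ratio of each inducible subunit to its counterpart does not depend on how a library is scaled. Psmb8 stood at 0.370 and 0.366 times Psmb5 in the Tet2 KO libraries and at 2.00 and 2.12 times Psmb5 in WT. Psmb9 stood at 0.167 and 0.163 times Psmb6 in Tet2 KO and at 0.619 and 0.644 times Psmb6 in WT. Psmb10 stood at 0.0939 and 0.125 times Psmb7 in Tet2 KO and at 0.541 and 0.549 times Psmb7 in WT. On the log2 scale the differences, Tet2 KO minus WT, were -2.48 for the beta5 pair, -1.94 for the beta1 pair and -2.33 for the beta2 pair, with SDs between the Tet2 KO libraries of 0.010, 0.024 and 0.30. The beta1 pair had the smallest difference, and its constitutive member Psmb6 had the largest log2 change of the constitutive members (-1.43, against -0.48 for Psmb5 and -0.44 for Psmb7). Of the transcripts of the beta5 pair, Psmb8 made up 27.0% and 26.8% in Tet2 KO and 66.7% and 67.9% in WT, so that the more abundant member of this pair differed between the groups. In the other 2 pairs the constitutive member was the more abundant in all 4 libraries. Summed over the 3 pairs, the inducible share was 16.1% and 17.3% in Tet2 KO and 48.3% and 49.0% in WT. These are transcript ratios, and protein in assembled cores was not measured. The ratios were not tested: limma was run on genes only, and a permutation test of 1 sample against 2 cannot give p below 0.333.

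**Figure D2:**
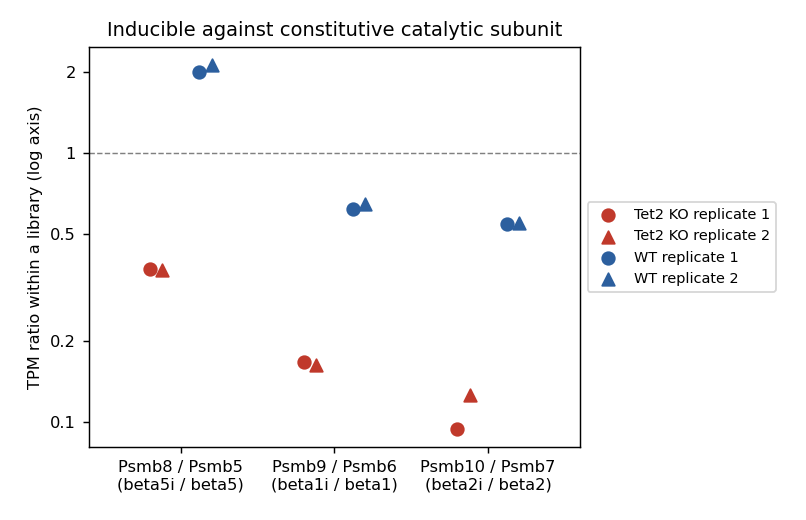
TPM of each inducible catalytic subunit divided by that of its constitutive counterpart within each library (log axis), with Tet2 KO in red and WT in blue. The dashed line marks equal TPM; only the Psmb8 to Psmb5 ratio in WT, at 2.00 and 2.12, lies above it, and in each pair both Tet2 KO points lie below both WT points.

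Among the 7 alpha subunits 6 fell, with a median of -0.60 (-0.01 with ERCC scaling, where 1 of 7 fell). Psma5 had 61.1 and 79.8 TPM in Tet2 KO and 163 and 163 TPM in WT (log2 change -1.21 ± 0.21, limma adjusted p = 0.000254), and it was the alpha subunit that passed with ERCC scaling. Psma4 followed with 104 and 114 TPM in Tet2 KO and 229 and 237 TPM in WT (log2 change -1.09 ± 0.21), and Psma3 at -0.83 ± 0.20. Psma7, Psma1 and Psma2 were called at -0.60, -0.58 and -0.57, and with ERCC scaling their log2 changes were -0.01, 0.01 and 0.03. Psma6, the alpha subunit with the smallest change, had 199 and 207 TPM in Tet2 KO and 247 and 256 TPM in WT (log2 change -0.31 ± 0.22, limma adjusted p = 0.253), and was the most abundant of the 38 genes in both Tet2 KO libraries. The 4 beta subunits without an active site lay closer together, from -0.70 to -0.45. Psmb1, Psmb4 and Psmb2 fell on the TPM scale (log2 changes -0.70, -0.69 and -0.55) and Psmb3 did not pass (-0.45 ± 0.22), while with ERCC scaling 0 of the 4 were called and Psmb2 and Psmb3 stood at 0.05 and 0.14. Psmb2 was also not called with a pseudocount of 5 or without WT replicate 2.

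In the 19S cap 15 of 17 subunits fell, with a median of -0.70. With ERCC scaling 2 fell and the median was -0.11. The 6 ATPases, which unfold substrates and feed them into the core, fell together, between -1.03 and -0.60, although with ERCC scaling 0 of 6 were called. Psmc5, the lowest, had 74.5 and 86.9 TPM in Tet2 KO and 168 and 163 TPM in WT (log2 change -1.03 ± 0.20, limma adjusted p = 0.000534). Psmc1 had 88.1 and 101 TPM in Tet2 KO and 189.8 and 190.0 TPM in WT (log2 change -0.998 ± 0.20). Psmc4, Psmc2, Psmc6 and Psmc3 were called at -0.75, -0.69, -0.67 and -0.60.

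The 11 Psmd subunits spread more widely than the ATPases, from -1.36 to -0.38. Psmd1 (Rpn2), a scaffold of the cap, had 55.6 and 75.3 TPM in Tet2 KO and 165 and 170.1 TPM in WT (log2 change -1.36 ± 0.22, limma adjusted p = 0.000123), and passed with ERCC scaling. Psmd7 (Rpn8), the partner of the deubiquitinase Psmd14, had 56.6 and 69.4 TPM in Tet2 KO and 134 and 149.5 TPM in WT (log2 change -1.17 ± 0.20, limma adjusted p = 0.000180), and also passed with ERCC scaling. Psmd8 (Rpn12), the most abundant of the 38 genes in WT, had 163 and 197 TPM in Tet2 KO and 409 and 423 TPM in WT (log2 change -1.21 ± 0.23, limma adjusted p = 0.000403). Psmd14 (Rpn11), which removes ubiquitin chains from substrates, stood at -0.63 ± 0.20 and was called on the TPM scale. Psmd11, Psmd12, Psmd3, Psmd2 and Psmd6 were called between -0.90 and -0.57, of which Psmd6 had a log2 change of 0.02 with ERCC scaling. Psmd4 (Rpn10), a ubiquitin receptor, and Psmd13 (Rpn9) did not pass: Psmd4 had 109 and 119 TPM in Tet2 KO and 152 and 145 TPM in WT (log2 change -0.38 ± 0.20), and Psmd13 79.0 and 92.5 TPM in Tet2 KO and 111 TPM in each WT library (log2 change -0.38 ± 0.20). With ERCC scaling both stood at 0.21. Of the 30 genes called, 10 did not pass without trend and robust estimation (23.3% of all genes called lower), 11 with median centring over the tested genes (23.5%) and 10 with quantile normalization (21.2%). All 5 inducible subunits passed under these 3 settings.

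The remaining activators showed the smallest changes. Psme3 (PA28 gamma), a nuclear activator that is not induced by interferon, had 120 and 124 TPM in Tet2 KO and 139 TPM in each WT library (log2 change -0.19 ± 0.20, limma adjusted p = 0.464). Psme4 (PA200), also nuclear, had 32.7 and 33.8 TPM in Tet2 KO and 36.0 and 38.4 TPM in WT (log2 change -0.16 ± 0.20, limma adjusted p = 0.548). Neither was called, although the groups did not overlap, and their log2 changes were 0.41 and 0.42 with ERCC scaling. Set against the median alpha subunit of the same library, Psme3 stood at 1.15 and 1.09 in Tet2 KO and at 0.749 and 0.731 in WT, while Psme1 stood at 0.843 and 1.04 in Tet2 KO and at 1.99 in each WT library. Psme3 transcripts thus exceeded those of Psme1 in both Tet2 KO libraries and were below them in both WT libraries.

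**Figure D3:**
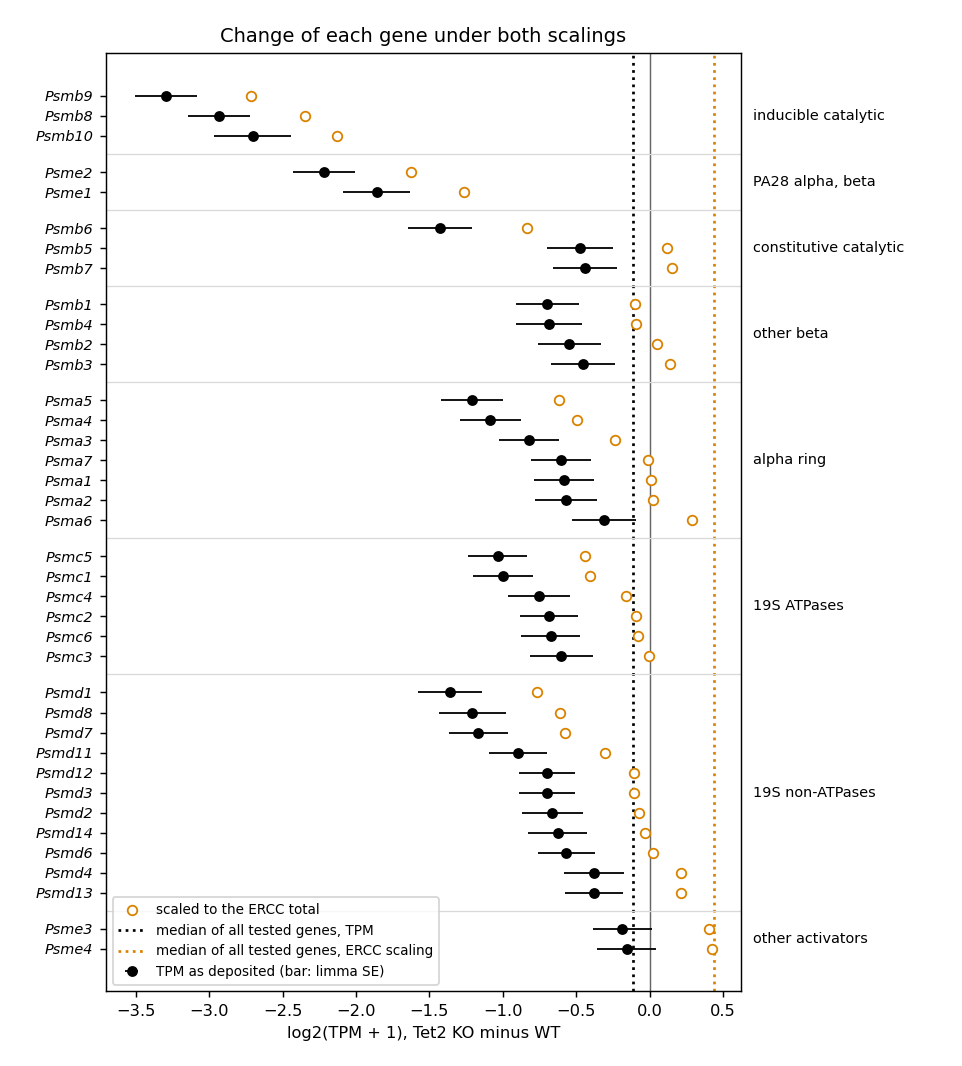
Change of each of the 38 genes, Tet2 KO minus WT, on the log2(TPM + 1) scale, as deposited (black, bars are limma's SE) and scaled to the ERCC total (open orange). Dotted lines mark the median of all tested genes under each scaling, -0.12 and 0.43; the inducible subunits lie far left under both, while most others lie near 0 with ERCC scaling.

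The cap subunits stood in similar proportion to the alpha ring in both groups. The median Psmc level was 0.835 and 0.905 times the median alpha level in Tet2 KO and 0.891 and 0.860 times in WT. The median Psmd level was 0.766 and 0.772 times the median alpha level in Tet2 KO and 0.822 and 0.786 times in WT. Within the core, levels were less even in Tet2 KO: over the 14 constitutive core subunits the coefficient of variation of TPM was 35.8% and 31.5% in Tet2 KO and 25.4% in each WT library. Over the 17 cap subunits it was 28.6% and 29.9% in Tet2 KO and 40.0% and 40.7% in WT, where Psmd8 stood far above the rest. All 38 genes together took 0.362% and 0.420% of TPM in Tet2 KO and 0.731% and 0.738% in WT.

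The Tet2 KO libraries also differed from each other in one direction. In 38 of 38 genes replicate 2 was above replicate 1, by a median ratio of 1.16 and between 1.03 (Psma2) and 1.59 (Psmb10), whereas replicate 2 was above replicate 1 in 65.2% of all tested genes. Over the 8226 tested genes at 5 TPM or more in every library the median ratio was 1.07. Between the WT libraries the ratio of the 38 genes lay between 0.941 and 1.11, with a median of 1.00. In 38 of 38 genes both Tet2 KO libraries were below both WT libraries, which held for 48.7% of all tested genes. The 10 neutrophil markers examined summed to 95689 and 75459 TPM in Tet2 KO replicates 1 and 2 and to 1461 and 1492 TPM in WT, and their part in these differences was not tested.

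Other proteasome genes were examined as lists of related function. Adrm1 (Rpn13), a ubiquitin receptor of the cap, had 102 and 110.1 TPM in Tet2 KO and 123 and 113 TPM in WT and was not called (log2 change -0.15 ± 0.20). Sem1, a small cap subunit listed in the table under its older name Shfm1, rose instead, with 582 and 602 TPM in Tet2 KO and 351 and 344 TPM in WT (log2 change 0.77 ± 0.25, limma adjusted p = 0.0170). The tissue-restricted subunits Psma8, of the testis, and Psmb11, of the thymus, did not exceed 0.18 TPM anywhere. Counts of these lists stand beside the 26.7% of all tested genes called lower and 22.1% called higher (12.5% and 41.5% with ERCC scaling). Of 8 assembly chaperones 3 fell and 0 rose, with a median of -0.53: Psmg4 at -1.01 ± 0.27, Psmd10 (gankyrin) at -0.70 ± 0.21 and Psmd5 at -0.63 ± 0.22. With ERCC scaling 0 fell and 1 rose, and their median was 0.03. Pomp, which helps to build the core and is named here after its value was seen, had 152 and 161 TPM in Tet2 KO and 199 and 194 TPM in WT (log2 change -0.33 ± 0.21, limma adjusted p = 0.207).

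Of 15 factors that bind the proteasome 5 fell and 2 rose, with a median of -0.34; with ERCC scaling 0 fell and 5 rose, and the median was 0.25. Nothing particular to this list is read from these counts. The shuttle protein Ubqln2 fell by 0.78 on the log2 scale and the deubiquitinase Usp14 by 0.76, and with ERCC scaling neither was called. Zfand2a, a stress-induced factor that binds the cap, rose to 441 and 447 TPM in Tet2 KO, against 47.1 and 50.8 TPM in WT (log2 change 3.16 ± 0.22, limma adjusted p = 8.31e-09). Ddi2, a protease that cuts and activates the transcription factor encoded by Nfe2l1, had 113 and 128 TPM in Tet2 KO and 55.5 and 57.0 TPM in WT (log2 change 1.09 ± 0.20). Nfe2l1 itself, which drives proteasome genes when the proteasome is inhibited, had 80.3 and 86.8 TPM in Tet2 KO and 131 and 128 TPM in WT (log2 change -0.63 ± 0.20, limma adjusted p = 0.0149), a call lost with ERCC scaling (-0.03), with median centring and without trend and robust estimation. The related factor Nfe2l2 was not called at 266 and 223 TPM in Tet2 KO and 240 and 245 TPM in WT, nor was Ngly1, which deglycosylates the Nfe2l1 protein (log2 change 0.25 ± 0.23).

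Of 4 genes of the p97 system, which extracts ubiquitinated proteins for the proteasome, 3 fell and 0 rose. Vcp, which encodes p97, had 213 and 244 TPM in Tet2 KO and 417.7 and 421 TPM in WT (log2 change -0.88 ± 0.23). Its cofactors Nsfl1c and Nploc4 fell by 0.70 and 0.66, and Ufd1 stood at -0.20 ± 0.19; with ERCC scaling 0 of the 4 were called. Of the ubiquitin genes, Ubb, a stress-responsive polyubiquitin gene, rose to 2452 and 2144 TPM in Tet2 KO, against 816 and 832 TPM in WT (log2 change 1.48 ± 0.29, limma adjusted p = 0.000607), and also rose with ERCC scaling (2.07). Rps27a, which encodes ubiquitin fused to a ribosomal protein, had a log2 change of -0.68 ± 0.29 and was not called. The ubiquitin-activating enzymes Uba1 and Uba6 were not called (-0.23 and -0.16), and the ubiquitin-like Ubd was listed at 0 in each library.

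**Figure D4:**
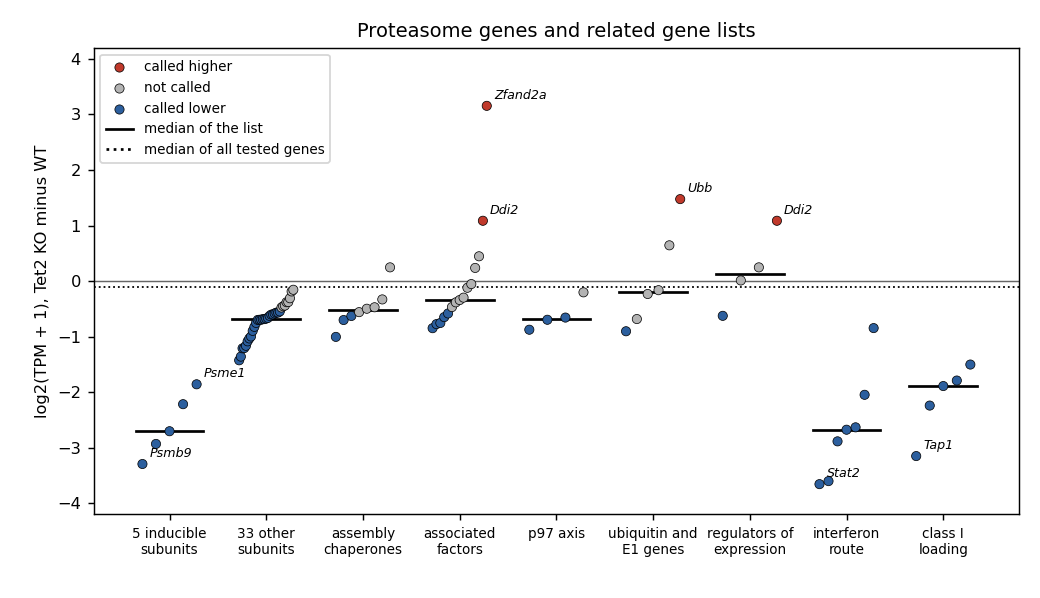
Change on the log2(TPM + 1) scale, Tet2 KO minus WT, of each tested gene of the proteasome sets and of 7 related lists, coloured by limma's call, with the median of each list as a bar and that of all tested genes as a dotted line. The inducible subunits, the interferon route and class I loading genes lie between -3.66 and -0.85, while Zfand2a, Ubb and Ddi2 stand above 1.

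Genes that carry the interferon signal to inducible subunits were lower as well. All 7 examined fell, with a median of -2.68, and 6 of 7 with ERCC scaling. Stat2 had 20.8 and 24.3 TPM in Tet2 KO and 294 and 296 TPM in WT (log2 change -3.66 ± 0.19). Irf1, a factor that drives immunoproteasome genes, had 35.9 and 39.8 TPM in Tet2 KO and 159 TPM in each WT library (log2 change -2.05 ± 0.19). Irf8, Nlrc5, Irf9 and Irf2 stood at -2.89, -2.68, -2.63 and -0.85, and Irf2 was not called with ERCC scaling. All 5 class I loading genes examined fell (Tap1, Tapbp, B2m, Tap2 and Erap1, at -3.15, -2.24, -1.89, -1.79 and -1.50), and all 5 also with ERCC scaling (median -1.29). Without the filter on low values no gene called in the lists of related function passed except Zfand2a and Tapbp.

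Markers of other cell types were set beside the inducible subunits, since lymphocytes and dendritic cells carry immunoproteasomes at rest. The 8 dendritic cell markers summed to 63.7 and 44.4 TPM in Tet2 KO and to 432 and 436 TPM in WT, of which Ccr7, Itgax and Flt3 made up most: Ccr7 had 1.80 and 2.54 TPM in Tet2 KO and 267 and 272 TPM in WT. Flt3 had 2.63 and 2.45 TPM in Tet2 KO and 71.0 and 69.3 TPM in WT. Itgax had 55.7 and 34.5 TPM in Tet2 KO and 79.4 and 80.4 TPM in WT. Ccr7 and Flt3 fell under both scalings, whereas Itgax fell on the TPM scale (log2 change -0.85) but not with ERCC scaling (-0.26). Of the other members, Zbtb46 had 0.91 and 2.17 TPM in Tet2 KO and 7.62 and 7.32 TPM in WT, and Xcr1 had 1.83 and 2.45 TPM in Tet2 KO and 4.62 and 5.12 TPM in WT, and both fell, Xcr1 not with ERCC scaling. The remaining members were low in every library. Siglech had 0 and 0.04 TPM in Tet2 KO and 1.48 and 1.38 TPM in WT, and fell. Clec9a had 0.53 and 0.13 TPM in Tet2 KO and 0.13 and 0.31 TPM in WT. Cd209a had 0.25 and 0.12 TPM in Tet2 KO and 0.28 and 0 TPM in WT. For Clec9a and Cd209a the groups overlapped with the higher mean in Tet2 KO, and neither was tested. The 5 B cell markers summed to 6.21 and 4.05 TPM in Tet2 KO and 9.31 and 8.40 TPM in WT, with Cd79b at 2.18 and 1.57 TPM in Tet2 KO and 8.36 and 7.08 TPM in WT. The 5 T cell markers summed to 2.37 and 5.33 TPM in Tet2 KO and 3.47 and 3.16 TPM in WT. The 4 NK cell markers summed to 3.29 and 4.64 TPM in Tet2 KO and 1.32 and 1.00 TPM in WT. Of these, Nkg7 rose, also with ERCC scaling, with 3.14 and 3.86 TPM in Tet2 KO and 0.91 and 0.58 TPM in WT. The 7 monocyte and macrophage markers summed to 1398 and 1418 TPM in Tet2 KO and 2496 and 2527 TPM in WT, with Csf1r at 170.0 and 142 TPM in Tet2 KO and 721 and 730 TPM in WT, and their part in the fall of the inducible subunits was not tested. Genes of the labelled cell type, a myeloid leukaemia, were present in both groups but not at equal levels. The myeloid transcription factor Spi1 had 649.9 and 508 TPM in Tet2 KO and 662 and 629.9 TPM in WT and was not called. Itgam had 719 and 529 TPM in Tet2 KO and 148 and 150.0 TPM in WT, and Cd33 had 644 and 404 TPM in Tet2 KO and 144 and 141 TPM in WT; both rose. The pan-leukocyte gene Ptprc had 413 and 396 TPM in Tet2 KO and 292 and 296 TPM in WT, and Runx1t1, whose product is the ETO part of AE9a, 146 and 205 TPM in Tet2 KO and 31.6 and 30.9 TPM in WT.

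The inducible genes lie in 3 places of the mouse genome (GRCm38, the assembly of mm10; positions from GENCODE vM21). Psmb9 (chromosome 17, 34181987 to 34187764, minus strand) and Psmb8 (chromosome 17, 34197721 to 34201454, plus strand) flank Tap1 in the MHC. The annotated 5′ ends of Psmb9 and Tap1 overlap by 212 exonic nucleotides on opposite strands, and Tap1 ends 496 nucleotides before Psmb8. Tap1 had 29.6 and 33.4 TPM in Tet2 KO and 288 and 287 TPM in WT, so the 3 neighbours were each lower in both Tet2 KO libraries. Psme1 (chromosome 14, 55578123 to 55581529) and Psme2 (55587441 to 55591113, minus strand) lie on one chromosome with Psmb5 (54614119 to 54618022, minus strand), which was not called. Psmb10 lies on chromosome 8 (105935735 to 105938444, minus strand). The kit was stranded per the labels, but the sources do not say whether counting used strand, so reads of overlapping ends cannot be assigned with certainty; Psmb7 shares 405 exonic nucleotides with Nek6 on the opposite strand, which had 205 and 159 TPM in Tet2 KO and 75.6 and 75.7 TPM in WT. For 11 of the 38 genes, Psmb5 and Psme2 among them, another annotated gene has a transcript at least 95% identical over at least 300 nucleotides, which makes their values less certain.

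Promoter windows of RefSeq (GRCm38.p6, 250 bases before to 50 after the gene start) were found for 32 of the 38 genes, including all 5 inducible ones but not Psmb7. The RefSeq starts differ from the GENCODE gene starts above: the windows of Psmb8, Psmb9 and Psme1 lie wholly inside the GENCODE genes, so sequence upstream of the outermost annotated start was not searched for these 3 genes. They were searched on both strands for 2 copies of GAAA with any 2 bases between them, the interferon-stimulated response element bound by IRF complexes, for TTCNNNGAA, the gamma-activated sequence bound by STAT factors, and for TGACNNNGC, the antioxidant response element read by Nfe2l1 and Nfe2l2. The following windows are shown for the beta5 and beta1 pairs, as both members of each have a window, and for Psme1, the inducible gene with a response element match; each is written 5′ to 3′ on the gene's strand with any match in capitals.
Psmb8 (beta5i), chr17:34197945-34198244, plus strand: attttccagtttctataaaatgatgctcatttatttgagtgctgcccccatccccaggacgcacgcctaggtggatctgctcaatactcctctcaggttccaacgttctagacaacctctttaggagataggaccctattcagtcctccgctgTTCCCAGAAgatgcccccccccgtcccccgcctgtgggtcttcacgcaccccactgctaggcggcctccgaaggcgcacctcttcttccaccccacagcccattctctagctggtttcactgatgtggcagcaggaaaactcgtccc
Psmb5 (beta5), chr14:54617946-54618245, minus strand: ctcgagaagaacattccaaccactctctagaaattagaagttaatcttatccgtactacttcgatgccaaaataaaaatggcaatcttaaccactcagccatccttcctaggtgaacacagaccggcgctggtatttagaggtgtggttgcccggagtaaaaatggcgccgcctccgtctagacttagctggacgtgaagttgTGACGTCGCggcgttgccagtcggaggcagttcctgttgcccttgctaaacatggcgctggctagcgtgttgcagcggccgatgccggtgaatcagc
Psmb9 (beta1i), chr17:34187281-34187580, minus strand: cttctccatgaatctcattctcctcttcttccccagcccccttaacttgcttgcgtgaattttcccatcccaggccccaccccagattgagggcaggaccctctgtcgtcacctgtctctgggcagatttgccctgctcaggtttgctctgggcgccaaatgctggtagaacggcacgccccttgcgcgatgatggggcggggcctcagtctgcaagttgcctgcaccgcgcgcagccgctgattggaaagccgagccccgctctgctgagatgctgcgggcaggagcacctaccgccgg
Psmb6 (beta1), chr11:70525107-70525406, plus strand: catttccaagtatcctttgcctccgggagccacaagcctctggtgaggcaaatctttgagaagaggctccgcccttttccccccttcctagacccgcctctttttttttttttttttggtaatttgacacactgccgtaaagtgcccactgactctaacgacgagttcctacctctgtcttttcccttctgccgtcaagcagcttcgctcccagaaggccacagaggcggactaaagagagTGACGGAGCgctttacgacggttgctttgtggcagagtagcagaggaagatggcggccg
Psme1 (PA28 alpha), chr14:55578244-55578543, plus strand: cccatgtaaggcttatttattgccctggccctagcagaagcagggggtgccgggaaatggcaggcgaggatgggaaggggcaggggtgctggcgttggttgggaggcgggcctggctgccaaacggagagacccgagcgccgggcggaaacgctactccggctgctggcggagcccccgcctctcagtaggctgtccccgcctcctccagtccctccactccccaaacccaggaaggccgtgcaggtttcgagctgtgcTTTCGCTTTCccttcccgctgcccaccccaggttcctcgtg

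The capitals mark a gamma-activated sequence in Psmb8, an interferon-stimulated response element on the opposite strand in Psme1 and an antioxidant response element in each of Psmb5 and Psmb6; the Psmb9 window holds none of the 3 motifs. Among the 5 inducible genes, 1 had an interferon-stimulated response element and 1 a gamma-activated sequence. Among the 27 other members with a window, the response element was found in 2 (Psmb3 and Psmd4) and the gamma-activated sequence in 1 (Psmd2). Over all 27025 genes with a window, 3.99% held the response element and 9.55% the gamma-activated sequence. Over the 9116 tested genes with a window the shares were 3.91% and 8.32%. The antioxidant response element was found in 0 of the 5 inducible genes and in 5 of the 27 others (Psmb5, Psmb6, Psmc6, Psmd12 and Psme4). That is 18.5% of the 27, close to the 17.1% of tested genes with a window (13.99% of all genes). A match is a run of letters and not a measured binding site, and a window without one says only that these letters are absent from these 300 bases.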

How the data were processed

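RNA-seq of 2 Tet2 KO and 2 WT libraries was analysed from one table of TPM values deposited by the authors, who used STAR and RSEM with mm10, per the submitters' processing notes. Tool versions, the annotation and the strand setting of the counting are not given in the sources used here. Of 24589 rows, 92 ERCC rows were left out of tests. Depth was estimated from the steps between low TPM values of single-transcript genes of 600 to 2500 nucleotides, of which 68.7% to 72.3% lay within 0.2 of a whole read, so it is approximate.

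Genes at 1 TPM or more in at least 2 libraries were tested on log2(TPM + 1) with limma 3.58.1 in R 4.3.3 (trend and robust estimation, two-sided, Benjamini-Hochberg over 11919 genes, threshold 0.05), with the WT libraries averaged to 1 sample against 2 Tet2 KO samples, which leaves 1 residual degree of freedom. A fold change on this scale understates the change of low genes. The procedure was tested on simulated data. Near-identical transcripts were sought with blastn 2.17.0, and tables were handled in Python 3.11.15. Named genes were all 38 members, Adrm1, Sem1, Psma8, Psmb11 and Tet2, every gene of lists of up to 7, and the 3 called genes with the largest change in each direction of longer lists. Members and lists were chosen with earlier results of these data known. The 14 alternatives changed the pseudocount, filter, limma options, scaling, treatment of the WT libraries and libraries included; the sum of Psme2 and Psme2b was added after seeing the data. Some genes that this rule names are not reported here.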

Additional observations from a re-analysis of the deposited data

How the results depend on the processing

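With ERCC scaling, 4942 genes were called higher and 1492 lower, against 2629 and 3182 on the TPM scale; 9 of the 38 members and 4 of the 33 others were lower, and the medians were -2.13 for the inducible subunits and -0.082 for the others. Under it the log2 change turned positive for Psma1 (0.0098), Psma2 (0.025), Psma6 (0.29), Psmb2 (0.046), Psmb3 (0.14), Psmb5 (0.12), Psmb7 (0.15), Psmd4 (0.21), Psmd6 (0.024), Psmd13 (0.21), Psme3 (0.41) and Psme4 (0.42). Without the filter on low values 123 genes were called higher and 295 lower, and 0 members, 0 of the others and 0 of the inducible subunits were called; the cause was not tested. Of the 33 others, 15 were called without trend and robust estimation, 14 with median centring (19 of all 38) and 15 with quantile normalization. On TPM + 1 the log2 ratio differences were -2.46 for Psmb8 to Psmb5 and -1.87 for Psmb9 to Psmb6. Leaving out 1 library at a time gave 2651 to 4321 genes higher and 3192 to 5674 lower, 29 to 38 members lower, and ratio differences of -2.52 to -2.44 for Psmb8 to Psmb5, -1.97 to -1.91 for Psmb9 to Psmb6 and -2.54 to -2.12 for Psmb10 to Psmb7. The counts of higher and lower genes were 4321 and 4987 without Tet2 KO replicate 1 and 3974 and 5674 without Tet2 KO replicate 2, both with the WT libraries as separate samples, so that these calls rest on the spread between the WT libraries alone. Same-numbered libraries did not deviate together (r = -0.01 across 11919 genes, which are not independent replicates). This cannot decide whether libraries are paired, because the difference between the WT libraries was close to what read sampling gives. The numbers were not taken as pairs. With the replicate number as a block and both WT libraries as samples, 3495 genes were higher, 4461 lower and 36 members lower; without the block the counts were 3520, 4517 and 35.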
